A study of Homo sapiens with 52 samples.

Results

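A listed set of 30 genes was described, reported to be cryptically spliced when TDP-43 is lost. The list leaves out the 3 best known such genes, STMN2, UNC13A and ELAVL3. The members were taken by gene symbol, through their Ensembl identifiers, from a count table of 63241 genes, and all 30 were found in it. The table covers i3Neurons, human neurons obtained from the induced pluripotent stem cell line WTC11 by doxycycline induction of a neurogenin-2 transgene. They were replated on day 3 onto inserts with pores of 1 µm, which neurites pass and cell bodies do not, and were harvested on day 17 as a neurite and a soma fraction. In the TDP-43 experiment knockdown of TARDBP, the gene of TDP-43, was set against a non-targeting guide RNA, with 5 libraries of each in both fractions. In the hnRNPA1 experiment knockdown of HNRNPA1, the gene of another nuclear RNA-binding protein, was set against its own non-targeting guide RNA, with 6 libraries of each in both fractions. Untreated neurons without a guide gave 4 libraries per fraction. All 10 groups come from the same cell line, and the labels do not say whether numbered samples are separate cultures, so p-values measure the spread between libraries, which may be technical.

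TDP-43 is a nuclear protein that binds UG-rich stretches of RNA, mostly in introns, and keeps the splicing machinery away from cryptic exons. When it is lost, as in most cases of amyotrophic lateral sclerosis and in many cases of frontotemporal dementia, such exons enter the mRNA, where a premature stop can send the transcript to nonsense-mediated decay, while other cryptic events are in frame or replace a first or last exon. The members were collected for such events, so a lower gene total is one possible readout among several, and gene-level counts do not show which exons were used.

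Because UG repeats are the sequence that TDP-43 binds, the spliced transcripts of GENCODE release 29 were searched on the sense strand for at least 6 TG units in a row, written in DNA letters. Such a run was present in 5 of 30 members, or 16.667%, and in 1284 of 19831 protein-coding genes of the table, or 6.475%. A run in any annotated transcript of a gene counted, and the shares were not matched for transcript length or number. Introns were not searched, and a run is a match of letters and not a binding site. The 6 runs found are shown in windows of 30 bases on the strand of the gene (hg38), with the run in capitals. Those in IGLON5 and RSF1 lie in the 3′ UTR, those in AGRN and ATG4B in transcripts annotated with a retained intron, and that in RAP1GAP in a processed transcript with no coding sequence.
AGRN, chr1:1052508-1052537, plus strand: tgtgtccgTGTGTGTGTGTGTGcatatggg
ATG4B, chr2:241651217-241651246, plus strand: ttaaggcgtTGTGTGTGTGTGttttttttc
IGLON5, chr19:51329114-51329143, plus strand: gtctctgttTGTGTGTGTGTGggggggtgg
RAP1GAP, chr1:21651586-21651615, minus strand: tgtggcgccTGTGTGTGTGTGtttctgttt
RSF1, chr11:77663013-77663042, minus strand: gtgtataTGTGTGTGTGTGTGTGcacacgc
RSF1, chr11:77665748-77665777, minus strand: gcgtgtgcgTGTGTGTGTGTGttggaattt
These 5 members did not share a direction after TDP-43 knockdown, with AGRN higher, ATG4B and RAP1GAP lower, IGLON5 opposite in the fractions, and RSF1 not called.

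Of the 52 libraries, 51 were used. The exception was sample 5 of the TDP-43 knockdown soma group, whose total of 541 counts kept it out, so 4 libraries stood for that group. The groups of the TDP-43 experiment held 6.83 to 28.9 M counts per library (M, 1000000), those of the hnRNPA1 experiment 6.26 to 19.4 M, and the untreated groups 2.54 to 10.5 M. Values are given in CPM, counts per 1000000 of a library size scaled by TMM within each experiment. TARDBP had 48.5, 36.9, 40.7, 40.3 and 42.6 CPM in knockdown neurites, against 126, 123, 108, 112 and 116 CPM in non-targeting neurites. It had 18.7, 18.8, 20.1 and 20.6 CPM in knockdown soma, against 118, 112, 107, 106 and 110.4 CPM in non-targeting soma. The mean left after knockdown was thus 35.8% of the control in neurites and 17.6% in soma, and the log2 change was 1.02 ± 0.09 higher in neurites than in soma (edgeR, adjusted p = 4.07e-08). HNRNPA1 was at 34.1% of its control in neurites and 39.0% in soma after its own knockdown. Summed over 6 neuronal markers, every library held between 3520 and 14519 CPM, while the sum over 5 astrocyte markers was at most 28.7 CPM. Mesenchymal and pluripotent marker sums were at most 25.6 and 14.7 CPM, and the sum over 4 oligodendrocyte markers was at most 38.4 CPM. Sums of neural progenitor and cycling cell markers reached 703 and 58.0 CPM. In bulk samples, fewer cells of a type and less RNA per cell cannot be told apart.

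Knockdown of TDP-43 was followed by lower gene totals for 12 of the 29 members tested in neurites and for 14 of 29 in soma, and by higher totals for 5 and 4. The background of called genes was 10.9% lower and 14.0% higher among 22014 genes in neurites, and 9.53% lower and 9.41% higher in soma. The median log2 change of the members was -0.11 in neurites and -0.16 in soma, against -0.03 and 0.02 over all genes. A gene was called at an adjusted p under 0.05 in edgeR's quasi-likelihood test, with Benjamini-Hochberg adjustment over all genes tested. With library sizes alone in place of TMM the calls in neurites were 9 lower and 3 higher, and all genes then split into 1792 higher and 788 lower, against 3075 higher and 2395 lower with TMM.

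INSR, IGSF21, PFKP, CELF5, RAP1GAP, ATG4B, ACTL6B, CAMK2B, TRAPPC12 and NUP188 fell in both fractions. AGRN, SYT7 and EPB41L4A were called higher in both, and PHF2 rose in neurites by a log2 change of 1.54 ± 0.06 while its soma value was 0.02 ± 0.06. MYO18A, CDK7 and CBARP were called lower in soma and not in neurites, KALRN and ICA1 lower in neurites and not in soma, and GPSM2 higher in soma and not in neurites. HDGFL2, RSF1, ARHGAP32, PXDN, SLC24A3, SETD5, MNAT1 and SYNE1 were called in neither fraction. The knockdown and control libraries did not overlap at all for 15 members with knockdown lower in soma, where 10.6% of all genes behaved so, and for 11 in neurites, where 5.02% did. Nonoverlap with knockdown higher was seen for 5 members in soma (11.1% of all genes) and 4 in neurites (8.72%). POLDIP3, which encodes an RNA-binding protein of mRNA export, had 0 to 15 counts per library with a median of 3, did not pass the filter on low counts in any fit and was not tested. With the options of the counting unknown, these counts do not show that POLDIP3 is not expressed.

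**Figure D1:**
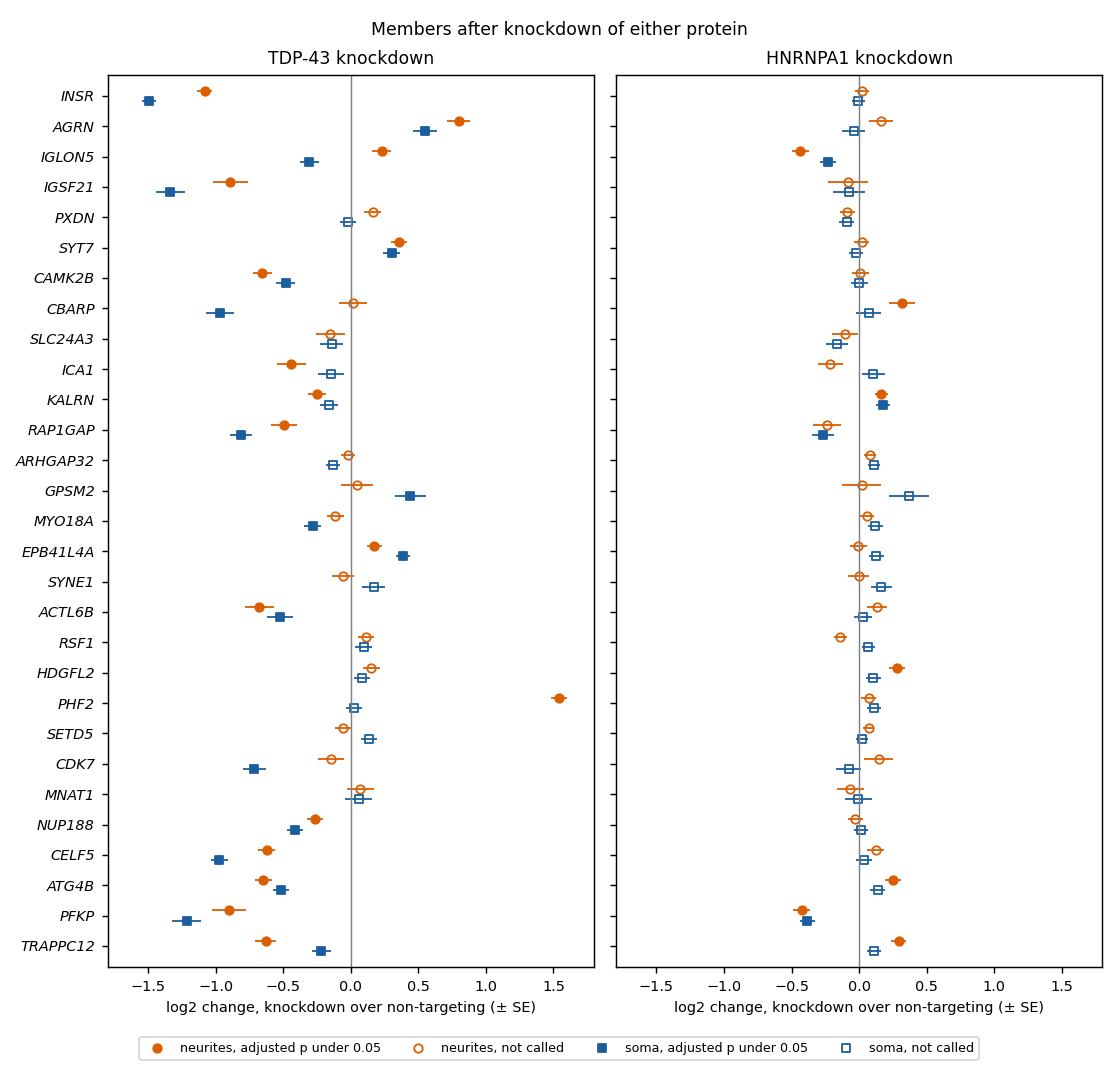
Log2 change (x axis, ± SE) of the 29 members tested, one gene per line, after TDP-43 knockdown (left) and HNRNPA1 knockdown (right), each over its non-targeting control. Circles are neurites and squares soma, and filled symbols have an adjusted p under 0.05. The TDP-43 panel spans -1.49 to 1.54 and the HNRNPA1 panel -0.43 to 0.37.

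Of the 5 receptors, adhesion and matrix genes, 2 were called higher and 2 lower in neurites, and 1 higher and 3 lower in soma. INSR, the insulin receptor (chr19:7112255-7294034, minus strand), had the largest fall of any member. It had 33.3, 28.7, 32.8, 33.0 and 31.1 CPM in TDP-43 knockdown neurites, against 67.6, 70.5, 63.9, 63.6 and 71.9 CPM in non-targeting neurites. In soma it had 31.0, 32.1, 31.1 and 32.1 CPM after knockdown, against 91.9, 90.4, 85.2, 91.2 and 86.6 CPM with the non-targeting guide. The knockdown libraries of both fractions lay close together, and none reached a control library. The log2 change was -1.08 ± 0.06 in neurites (adjusted p = 3.43e-14) and -1.49 ± 0.05 in soma (adjusted p = 5.64e-18). By p-value INSR was gene 4 of 22014 in soma and gene 9 in neurites. Its close relative IGF1R, the receptor of insulin-like growth factor 1, went the other way, with log2 changes of 0.83 ± 0.07 in neurites and 0.39 ± 0.07 in soma, both called.

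IGSF21, an immunoglobulin-family synaptic adhesion protein, fell in both fractions. Its values were 8.19, 11.4, 7.43, 7.03 and 7.90 CPM in knockdown neurites, against 13.3, 14.8, 14.0, 14.0 and 19.0 CPM in non-targeting neurites. In soma they were 7.69, 8.12, 7.04 and 7.83 CPM after knockdown, against 18.3, 21.6, 15.2, 22.6 and 19.3 CPM in the controls. The groups did not overlap in either fraction, although 1 knockdown neurite library and 1 control neurite library stood above the others of their groups. The log2 change was -0.89 ± 0.13, adjusted p = 9.64e-06 in neurites, and -1.33 ± 0.11, adjusted p = 2.39e-10 in soma.

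AGRN encodes agrin, the heparan sulfate proteoglycan that organises the neuromuscular junction, and it rose. It had 503, 642, 546, 569.9 and 511 CPM in knockdown neurites, against 330.2, 346, 277, 299.8 and 338 CPM in non-targeting neurites. It had 642, 777, 627 and 580.0 CPM in knockdown soma, against 441, 511, 395, 473 and 419.8 CPM in non-targeting soma. All knockdown libraries lay above all controls in both fractions, with a log2 change of 0.80 ± 0.09, adjusted p = 5.45e-08 in neurites and 0.55 ± 0.09, adjusted p = 2.91e-05 in soma. IGLON5, a cell adhesion molecule of the IgLON family that is the target of autoantibodies in a sleep and movement disorder, moved in opposite directions. It had 211, 205, 217, 217 and 196 CPM in knockdown neurites, against 181, 183, 147, 179 and 201 CPM in non-targeting neurites, where the highest control lay above the lowest knockdown library. It had 110.3, 114, 103 and 103 CPM in knockdown soma, against 127, 145, 124, 144 and 125 CPM in non-targeting soma, with no overlap. The log2 change was 0.23 ± 0.07, adjusted p = 0.0136 in neurites and -0.31 ± 0.07, adjusted p = 0.00197 in soma. The neurite call was lost when only the 2 groups compared were fitted (adjusted p = 0.0586) and with library sizes alone (adjusted p = 0.195). PXDN, a heme peroxidase that cross-links collagen IV, had log2 values of 0.16 ± 0.06 and -0.02 ± 0.06 and was not called.

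Of the 5 members that act at the synapse or on calcium, 2 were called lower in each fraction and SYT7 was called higher in both. CAMK2B, the beta subunit of calcium/calmodulin-dependent kinase II, had 45.8, 46.5, 39.6, 41.7 and 40.1 CPM in knockdown neurites, against 66.7, 75.4, 61.0, 61.6 and 69.5 CPM in non-targeting neurites. In soma it had 66.6, 73.6, 63.5 and 55.9 CPM after knockdown, against 92.3, 92.1, 88.4, 90.4 and 89.6 CPM in the controls. It was lower in every knockdown library than in any control of the same fraction (log2 -0.65 ± 0.07, adjusted p = 9.71e-08 in neurites, and -0.48 ± 0.07, adjusted p = 4.22e-06 in soma).

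CBARP, an inhibitory partner of voltage-gated calcium channel beta subunits, fell in soma and was not called in neurites. It had 77.3, 102, 93.6, 85.5 and 66.8 CPM in knockdown neurites, against 87.4, 91.2, 66.8, 81.9 and 86.1 CPM in non-targeting neurites, which overlapped. It had 40.3, 54.1, 44.9 and 46.9 CPM in knockdown soma, against 82.0, 109, 83.4, 102 and 80.5 CPM in non-targeting soma, and these did not overlap. The log2 change was 0.02 ± 0.10 in neurites (adjusted p = 0.933) and -0.97 ± 0.11 in soma (adjusted p = 6.46e-08). CBARP lies opposite STK11 on chromosome 19, and without the strand setting of the counting, reads of the 2 genes may not be told apart. SYT7, a calcium sensor of exocytosis, had a log2 change of 0.36 ± 0.06, adjusted p = 6.76e-05 in neurites and 0.30 ± 0.06, adjusted p = 0.000661 in soma, with no overlap between the groups in either. ICA1, a protein of secretory and synaptic vesicle traffic, fell in neurites (-0.44 ± 0.11, adjusted p = 0.00268) and was not called in soma (-0.15 ± 0.10). SLC24A3, a potassium-dependent sodium/calcium exchanger, was called in neither (-0.15 ± 0.11 in neurites and -0.14 ± 0.09 in soma).

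**Figure D2:**
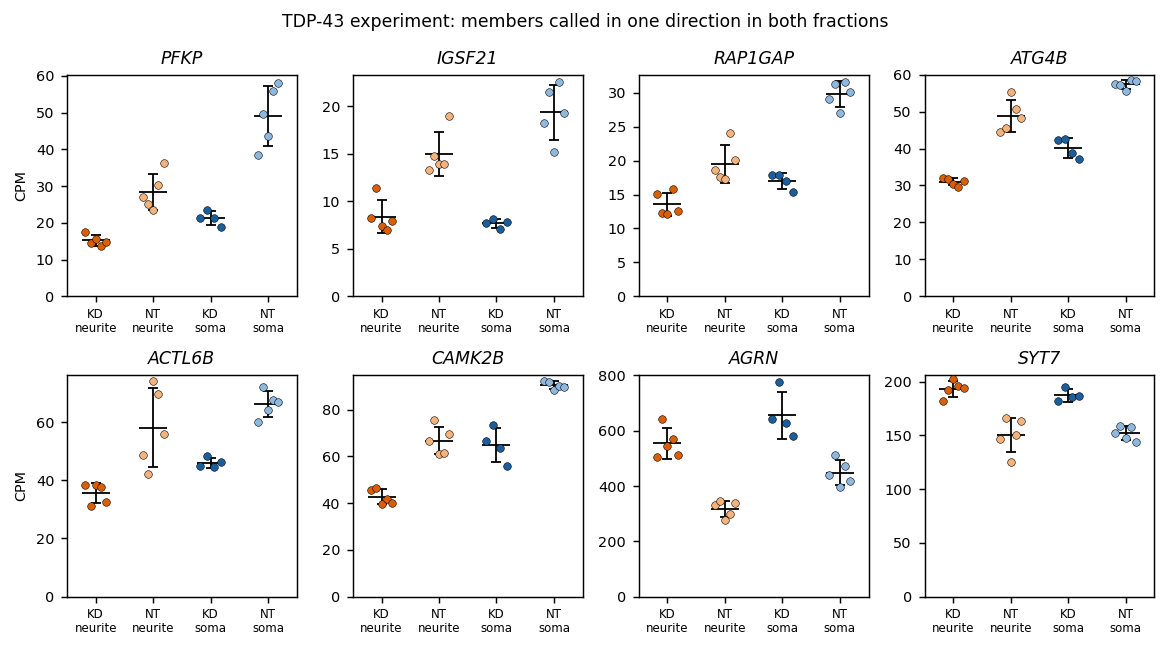
CPM (y axis, from 0) of 8 members called in 1 direction in both fractions, by group in the TDP-43 experiment (KD, TDP-43 knockdown, and NT, non-targeting). Points are libraries, and bars are the mean ± SD. PFKP, IGSF21, RAP1GAP, ATG4B, ACTL6B and CAMK2B were lower in KD than in NT libraries of the same fraction, and AGRN and SYT7 were higher.

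Of the 7 members of GTPase signalling and the cytoskeleton, 1 was called higher and 2 lower in neurites, and 2 higher and 2 lower in soma. RAP1GAP, a GTPase-activating protein that switches off Rap1, had 15.0, 12.2, 12.1, 15.8 and 12.6 CPM in knockdown neurites, against 18.6, 17.6, 17.2, 24.1 and 20.1 CPM in non-targeting neurites. In soma it had 17.8, 17.9, 17.0 and 15.3 CPM after knockdown, against 29.03, 31.3, 26.9, 31.7 and 30.1 CPM in the controls. It was lower in every knockdown library than in any control of the same fraction, with log2 -0.50 ± 0.10, adjusted p = 0.000355 in neurites, and -0.81 ± 0.08, adjusted p = 9.83e-09 in soma. EPB41L4A, a FERM-domain protein of the membrane skeleton, was called higher in soma (0.39 ± 0.05, adjusted p = 3.76e-06) and in neurites (0.18 ± 0.06, adjusted p = 0.0214). The neurite call of EPB41L4A was lost without non-targeting neurite sample 6 (adjusted p = 0.0701), with a replicate block (0.0677), with only the 2 groups compared (0.0938), with no filter on low counts (0.151) and with library sizes alone (0.221). GPSM2, which orients the mitotic spindle, was called higher in soma at a low level, with 4.36, 3.98, 3.97 and 3.97 CPM in knockdown and 3.16, 2.57, 3.03, 3.17 and 2.97 CPM in control libraries (log2 0.44 ± 0.12, adjusted p = 0.0068), and had a neurite value of 0.05 ± 0.12. MYO18A, an unconventional myosin of the Golgi, was called lower in soma (-0.28 ± 0.06, adjusted p = 0.00199), and KALRN, which encodes kalirin, a protein of dendritic spines, in neurites (-0.25 ± 0.07, adjusted p = 0.00582). Of the rest, ARHGAP32, a GTPase-activating protein, and SYNE1, the nuclear envelope protein nesprin-1, had log2 values from -0.13 to 0.17 over both fractions and were not called.

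Of the 8 members of chromatin, transcription and the nuclear pore, 1 was called higher and 2 lower in neurites, and none higher and 3 lower in soma. PHF2, a histone lysine demethylase of the PHD finger family (chr9:93576407-93679587, plus strand), had 306, 323, 315, 287 and 265 CPM in knockdown neurites, against 111, 105, 97.5, 94.9 and 103 CPM in non-targeting neurites. In soma it had 108, 116, 111 and 111 CPM after knockdown, against 109.6, 118, 102, 112 and 106 CPM in the controls. The lowest knockdown neurite library was far above every other library of the experiment, while the soma groups overlapped. The mean was 292.5% of the control in neurites and 101.5% in soma, with log2 changes of 1.54 ± 0.06, adjusted p = 1.81e-16 in neurites and 0.02 ± 0.06, adjusted p = 0.856 in soma. PHF2 had the smallest p-value of all 22014 genes both for knockdown in neurites and for the difference between the fractions. Its log2 change in neurites ran from 1.52 to 1.59 when any library was left out. Its nearest tested protein-coding neighbours, chosen after its values were seen, did not rise with it in neurites. FAM120A was at -0.02 ± 0.08 and PTPDC1 at -0.19 ± 0.10 there, neither called. In soma PTPDC1 was called lower (-0.25 ± 0.09, adjusted p = 0.0409) and FAM120A was not called (0.07 ± 0.08). A pseudogene copy, PHF2P2 on chromosome 13, had at most 25 counts in a library. With the treatment of multimapped reads unknown, these counts do not show that reads of the copy were kept apart from those of PHF2.

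ACTL6B, the neuronal actin-like subunit of the BAF chromatin remodelling complex, fell in both fractions. It had 38.4, 31.3, 38.4, 37.8 and 32.5 CPM in knockdown neurites, against 48.6, 42.1, 74.2, 69.8 and 55.9 CPM in non-targeting neurites, whose libraries were widely spread. It had 45.1, 48.3, 44.5 and 46.3 CPM in knockdown soma, against 60.1, 72.3, 64.3, 67.6 and 67.1 CPM in non-targeting soma. The groups did not overlap, and the log2 change was -0.68 ± 0.11, adjusted p = 2.45e-05 in neurites, and -0.52 ± 0.10, adjusted p = 0.000255 in soma. CDK7, the catalytic subunit of the kinase that activates cell cycle kinases and phosphorylates RNA polymerase II, was low throughout. It had 9.73, 8.83, 9.36, 8.23 and 10.9 CPM in knockdown neurites, against 9.65, 10.2, 11.1, 10.4 and 11.2 CPM in non-targeting neurites, and 6.51, 6.13, 6.32 and 5.44 CPM in knockdown soma, against 9.51, 10.3, 10.3, 9.63 and 10.0 CPM in non-targeting soma. The soma groups did not overlap and the neurite groups did, and the log2 change was -0.14 ± 0.10, adjusted p = 0.308 in neurites and -0.71 ± 0.08, adjusted p = 2.5e-07 in soma. MNAT1, the assembly factor of the same kinase complex, was called in neither fraction (0.07 ± 0.10 in neurites and 0.06 ± 0.10 in soma). NUP188, a scaffold protein of the nuclear pore, fell by a smaller amount (-0.26 ± 0.06, adjusted p = 0.00194 in neurites, and -0.41 ± 0.06, adjusted p = 3.89e-06 in soma). RSF1, a subunit of a chromatin remodeller, HDGFL2, a histone reader with a well known in-frame cryptic exon, and SETD5, a SET-domain protein, had log2 values from -0.06 to 0.15 over both fractions and were not called.

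CELF5, a brain-enriched RNA-binding regulator of splicing, was the 1 tested member of the RNA-binding group. It had 93.7, 93.9, 87.8, 83.7 and 80.3 CPM in knockdown neurites, against 150.0, 143, 120.0, 123 and 137 CPM in non-targeting neurites. It had 91.8, 97.0, 91.8 and 88.4 CPM in knockdown soma, against 179.7, 194, 172, 187 and 171 CPM in non-targeting soma. All knockdown libraries of both fractions lay below all controls, with log2 changes of -0.62 ± 0.06, adjusted p = 2.54e-08 in neurites and -0.97 ± 0.06, adjusted p = 3.6e-12 in soma.

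All 3 members of metabolism, autophagy and membrane traffic fell in both fractions. PFKP, the platelet isoform of phosphofructokinase, an early control point of glycolysis, had 17.6, 14.4, 15.7, 13.7 and 14.8 CPM in knockdown neurites, against 27, 25.2, 23.4, 30.2 and 36.2 CPM in non-targeting neurites. In soma it had 21.3, 23.5, 21.4 and 18.7 CPM after knockdown, against 38.5, 49.5, 43.74, 55.9 and 58.1 CPM in the controls. The groups did not overlap, and the log2 change was -0.90 ± 0.12, adjusted p = 3.78e-06 in neurites, and -1.21 ± 0.11, adjusted p = 8.06e-10 in soma.

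ATG4B, the cysteine protease that processes ATG8 proteins in autophagy, had 32.0, 31.7, 30.5, 29.7 and 31.1 CPM in knockdown neurites, against 44.5, 45.7, 55.3, 50.6 and 48.3 CPM in non-targeting neurites. In soma it had 42.3, 42.6, 38.8 and 37.1 CPM after knockdown, against 57.5, 57.3, 55.5, 58.5 and 58.2 CPM in the controls. The knockdown libraries lay below all controls in both fractions (log2 -0.65 ± 0.06, adjusted p = 9.86e-09 in neurites, and -0.52 ± 0.06, adjusted p = 9.42e-08 in soma). TRAPPC12, a subunit of the TRAPP tethering complex of the secretory pathway, had 36.0, 37.1, 33.3, 27.6 and 32.5 CPM in knockdown neurites, against 45.1, 54.3, 50.3, 54.2 and 52.1 CPM in non-targeting neurites, with no overlap. It had 60.5, 66.1, 57.3 and 52.3 CPM in knockdown soma, against 68.2, 74.1, 63.1, 69.8 and 67.6 CPM in non-targeting soma, and these overlapped. The log2 change was -0.63 ± 0.08, adjusted p = 8.88e-07 in neurites and -0.22 ± 0.07, adjusted p = 0.0326 in soma. The soma call was lost in 7 of 9 fits that left out 1 soma library, all but those without knockdown sample 2 or non-targeting sample 4. Over the 9 fits the log2 change ran from -0.28 to -0.16. With library sizes alone the soma call was also lost (adjusted p = 0.45).

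The effect of TDP-43 knockdown differed between the fractions for 7 of the 29 members. It was higher in neurites for 6 (5.81% of all genes) and lower in neurites for TRAPPC12 (4.67%). PHF2 had the largest difference, a log2 value of 1.52 ± 0.08 (adjusted p = 2.54e-12). CBARP followed with 0.99 ± 0.15, adjusted p = 0.000104, then CDK7 with 0.57 ± 0.13, adjusted p = 0.0047, and IGLON5 with 0.54 ± 0.10, adjusted p = 0.000737. INSR (0.41 ± 0.08, adjusted p = 0.000867) and CELF5 (0.35 ± 0.09, adjusted p = 0.0128) fell in both fractions, and the fall was smaller in neurites. TRAPPC12 had a difference of -0.41 ± 0.11, adjusted p = 0.013, since its fall was larger in neurites. With library sizes alone 2 members were called higher and none lower in this comparison, and all genes split into 130 higher and 198 lower, against 1278 higher and 1028 lower with TMM. TARDBP itself was also less reduced in neurites, and the share of counts from 7SL RNA, which ran from 3.61 to 21.0% in knockdown neurites and from 11.4 to 29.8% in non-targeting neurites, was 1.75% or less in every soma library of the experiment. Mitochondrial transcripts took 4.58 to 6.30% of counts in knockdown neurites and 2.72 to 4.05% in non-targeting neurites, against at most 1.71% in knockdown soma and 1.58% in non-targeting soma. Neural progenitor markers summed to 435 to 531 CPM in knockdown neurites and 352 to 418 CPM in non-targeting neurites, and to 246 to 276 CPM in knockdown soma and 188 to 239 CPM in non-targeting soma. Single markers did not all rise: among the 5 tested, 1 was called higher and 2 lower after knockdown in each fraction. The part of these measures in the differences was not tested.

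**Figure D3:**
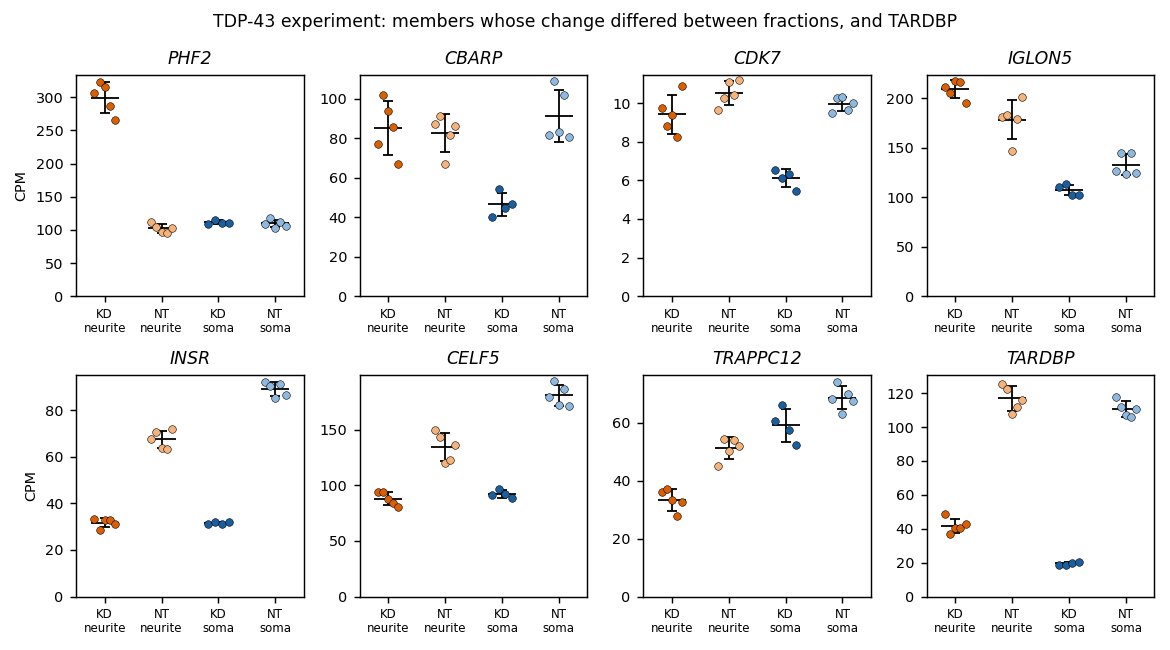
CPM (y axis, from 0) of the 7 members whose change differed between the fractions, and of TARDBP, by group in the TDP-43 experiment (KD, TDP-43 knockdown, and NT, non-targeting). Points are libraries, and bars are the mean ± SD. PHF2 runs from 265 to 323 CPM in KD neurites and from 94.9 to 118 CPM in the 3 other groups, while CBARP and CDK7 are lower in KD soma and overlap between KD and NT neurites.

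**Figure D4:**
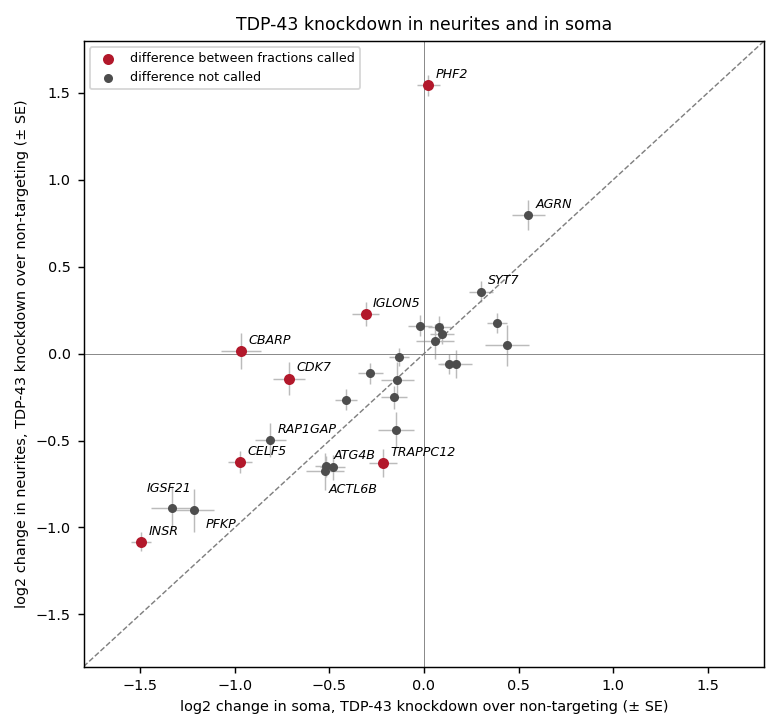
Log2 change after TDP-43 knockdown in neurites (y axis) against that in soma (x axis), 1 point per member, with bars for ± SE. The dashed line marks equal changes, and red points are the 7 members whose difference between fractions was called. PHF2 lies at 1.54 in neurites and 0.02 in soma, and CBARP at 0.02 in neurites and -0.97 in soma.

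HNRNPA1 knockdown gave 7 calls among the members in neurites and 4 in soma. In neurites 5 were called higher and 2 lower (8.96% and 7.21% of 19812 genes), and in soma 1 higher and 3 lower (3.79% and 3.3%). With library sizes alone no member was called higher and 6 lower in neurites, where all genes split into 605 higher and 3825 lower, against 1775 and 1428 with TMM. In soma that scaling gave 0 higher and 3 lower, with all genes at 494 and 719, against 751 and 653 with TMM. PFKP, which also fell after TDP-43 knockdown, was called in both fractions. It was between 31.1 and 34.6 CPM (median 32.2) in HNRNPA1 knockdown neurites, against between 39.6 and 48.7 CPM (median 43.75) in non-targeting neurites. It was between 34.3 and 37.9 CPM (median 35.04) in knockdown soma, against between 42.6 and 52.5 CPM (median 46.9) in non-targeting soma. The groups did not overlap in either fraction. Nonoverlap with knockdown lower was seen for 3 members in neurites (2.83% of all genes) and 1 in soma (2.11%), and with knockdown higher for 2 (3.97%) and 1 (1.96%). The log2 change of PFKP was -0.43 ± 0.06, adjusted p = 1.32e-05 in neurites, and -0.38 ± 0.06, adjusted p = 1.57e-05 in soma. IGLON5 was also lower in both fractions (-0.43 ± 0.06, adjusted p = 1.43e-05 in neurites, and -0.23 ± 0.06, adjusted p = 0.0189 in soma), and KALRN was higher in both (0.16 ± 0.05 in neurites and 0.18 ± 0.05 in soma). ATG4B (0.25 ± 0.06), HDGFL2 (0.28 ± 0.06), TRAPPC12 (0.29 ± 0.06) and CBARP (0.32 ± 0.10) were called higher in neurites, and RAP1GAP lower in soma (-0.27 ± 0.08). The single higher call in soma, KALRN, was lost without knockdown samples 1 or 6 or non-targeting sample 6, and of the 3 lower calls 1, PFKP, was left without knockdown sample 3 or non-targeting sample 6. RAP1GAP in soma was lost in 7 of 12 such fits, those without knockdown samples 1, 3, 4, 5 or 6 or non-targeting samples 1 or 6. The 5 higher calls in neurites became 3 without non-targeting sample 1 or 3, where CBARP and KALRN were lost, and CBARP was also lost without knockdown sample 1 and KALRN without knockdown sample 5.

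Other measures moved with HNRNPA1 knockdown. The 6 neural progenitor markers summed to 563 to 703 CPM in knockdown neurites, against 445 to 553 CPM in non-targeting neurites, and to 324 to 360 CPM in knockdown soma, against 244 to 267 CPM in non-targeting soma. Of the 5 progenitor markers tested, 2 were called higher in each fraction. 7SL RNA took 6.78 to 12.5% of counts in knockdown neurites, against 3.62 to 8.05% in non-targeting neurites. The part of these measures in the members' values was not tested.

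PHF2 and INSR, the members with the largest changes after TDP-43 knockdown, were not called after HNRNPA1 knockdown. PHF2 was between 115 and 130.4 CPM (median 125) in HNRNPA1 knockdown neurites, against between 109 and 126 CPM (median 119.9) in non-targeting neurites. INSR was between 73.5 and 89.3 CPM (median 75.9) in knockdown soma, against between 71.2 and 82.9 CPM (median 79.5) in non-targeting soma. Both pairs of groups overlapped, with log2 values of 0.07 ± 0.06 for PHF2 and -0.01 ± 0.05 for INSR. No member had a called difference between the effects of HNRNPA1 knockdown in neurites and soma by edgeR, DESeq2 or limma-voom, where 0.177% of all genes did by edgeR. At an unadjusted p under 0.05, edgeR gave 5 members, or 17.2%, against 9.09% of all genes.

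In a fit of both experiments, the TDP-43 effect differed from the HNRNPA1 effect for 15 members in neurites, 6 higher and 9 lower, where 10.5% and 6.37% of 22890 genes were called. In soma it differed for 18, with 3 higher and 15 lower, against 6.59% and 6.12%. All 13 members other than IGLON5 that fell in soma after TDP-43 knockdown also had a lower effect there than after HNRNPA1 knockdown. These 13 were picked by the same TDP-43 libraries that enter this fit, so the overlap is not separate support. The matching share over all genes was not computed. The difference in soma was -1.48 ± 0.07, adjusted p = 2.04e-21 for INSR, the gene with the second smallest p-value of the fit, and -0.82 ± 0.12, adjusted p = 6.75e-07 for PFKP. In neurites it was 1.49 ± 0.08, adjusted p = 2.65e-19 for PHF2. For ATG4B and TRAPPC12, which were higher after HNRNPA1 knockdown in neurites, the difference there was -0.88 ± 0.09, adjusted p = 1.19e-10, and -0.91 ± 0.10, adjusted p = 6.27e-10. With library sizes alone the counts of members were 7 higher and 7 lower in neurites and 1 higher and 8 lower in soma. All genes then split in neurites into 3448 higher and 459 lower, against 2396 and 1459 with TMM. In soma they split into 710 higher and 583 lower, against 1508 and 1400 with TMM.

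Without knockdown the members were spread between neurites and soma in both directions. In the non-targeting libraries of the TDP-43 experiment 7 were higher and 13 lower in neurites (24.1% and 22.3% of all genes). In those of the hnRNPA1 experiment 10 were higher and 12 lower (23.5% and 24.9%), and in untreated neurons 11 were higher and 6 lower (28.7% and 27.8%). RSF1, EPB41L4A, GPSM2, ARHGAP32, IGLON5, ICA1 and MNAT1 were higher in neurites in all 3 sets, and ATG4B, RAP1GAP, NUP188, CELF5, PXDN and TRAPPC12 were lower in all 3. PHF2 and SYT7 were called in none of the sets, and SETD5 had opposite calls, lower in the TDP-43 controls and higher in untreated neurons. Among fits that left out 1 library, SETD5 lost its call in 7 of 10 in the TDP-43 controls, all but those without neurite samples 1 or 2 or soma sample 4, and in untreated neurons without soma samples 5 or 7. ARHGAP32 lost its call in the TDP-43 controls in 6 of 10, those without neurite samples 1, 2 or 4 or soma samples 2, 5 or 6. In untreated neurons RAP1GAP and CELF5 lost theirs without neurite samples 4, 5 or 6, and TRAPPC12 without neurite samples 4, 5 or 7 or soma sample 6. These directions are those of TMM scaling, and of the 13 members named only ICA1, MNAT1 and the 6 lower ones kept theirs in every set with library sizes alone, where SETD5 also reversed in untreated neurons. With library sizes alone, which shift the median of all genes to -0.63, -0.40 and -1.43 in the 3 sets, against -0.03, -0.05 and -0.21 with TMM, higher calls fell to 2, 4 and 5 and lower calls grew to 23, 20 and 23. All genes then split into 1891 higher and 14536 lower, 1911 and 12129, and 2041 and 14924, against 5314 and 4918, 4657 and 4925, and 5324 and 5159 with TMM.

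MNAT1 had the largest ratio of any member in untreated neurons. It had 309, 324, 258 and 242 CPM in untreated neurites, against 23.5, 20.3, 20.5 and 19.6 CPM in untreated soma, a log2 ratio of 3.74 ± 0.12. Every neurite library lay far above every soma library. In the non-targeting controls the ratio of MNAT1 was 1.214 ± 0.10 in the TDP-43 experiment and 1.01 ± 0.10 in the hnRNPA1 experiment, where GPSM2 had the largest ratios, 1.26 ± 0.12 and 1.27 ± 0.14, at a low level. RSF1 had 1191, 1237, 981 and 1079 CPM in untreated neurites, against 262, 220.2, 266 and 231 CPM in untreated soma, again with no overlap. The log2 ratio of RSF1 was 2.19 ± 0.11 there, and 0.56 ± 0.06 and 0.68 ± 0.05 in the 2 control sets. The 6 lower calls in untreated neurons became 3 without neurite sample 4 or 5. Untreated libraries were made with version 2 of a total RNA kit for low input and the guide-carrying libraries with version 3, so kit and experiment cannot be told apart. Markers of cycling cells and neural progenitors also had larger sums in neurites: 5 cycling markers held 47.4 to 58.0 CPM in untreated neurites and 20.7 to 34.4 CPM in untreated soma, and 6 progenitor markers held 216 to 253 CPM in neurites and 75.3 to 86.5 CPM in soma. Their part in the ratios was not tested.

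**Figure D5:**
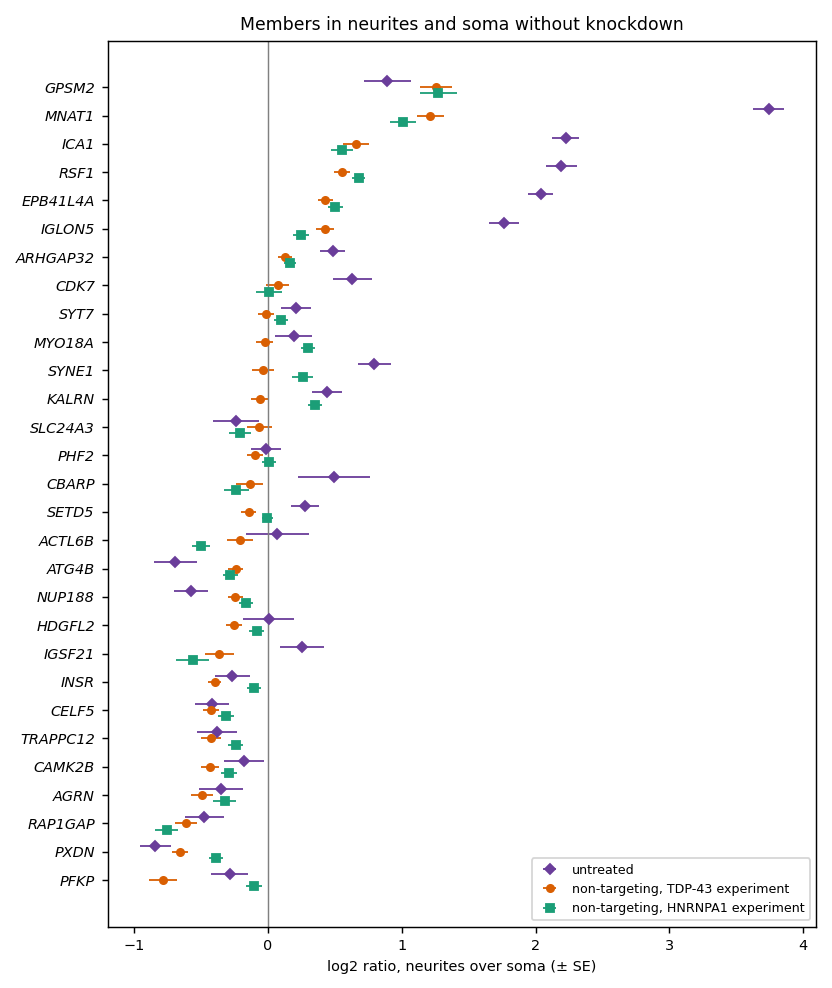
Log2 ratio of neurites over soma (x axis, ± SE) for the 29 members tested, in untreated neurons and in the non-targeting controls of the TDP-43 and hnRNPA1 experiments. Members are ordered by the ratio in the TDP-43 controls. MNAT1, ICA1, RSF1, EPB41L4A and IGLON5 have the highest ratios in untreated neurons, from 1.77 to 3.74, and have ratios of 0.25 to 1.214 in the controls; with library sizes alone RSF1, EPB41L4A and IGLON5 turn negative in the TDP-43 controls and IGLON5 in the hnRNPA1 controls.

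Levels per length, in CPM per kilobase of gene model, ranked the members differently in the experiments. In TDP-43 knockdown neurites the highest members were IGLON5 at 80.3, PHF2 at 53.8 and AGRN at 51.5, against 68.4, 18.4 and 29.6 in non-targeting neurites. In TDP-43 knockdown soma AGRN was highest at 61.0, against 41.6 in non-targeting soma. In untreated neurites MNAT1 (73.3) and RSF1 (71.3) were highest, and in untreated soma SETD5 (32.1) and PFKP (21.5). GPSM2 was the lowest tested member in the 8 groups with guides, at 0.326 to 0.883.

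The 3 targets kept out of the list fell in both fractions after TDP-43 knockdown. STMN2, which encodes a microtubule regulator of axons, had log2 changes of -1.42 ± 0.07 in neurites and -2.04 ± 0.08 in soma. ELAVL3, a neuronal RNA-binding protein, had -0.77 ± 0.06 and -1.55 ± 0.06, and UNC13A, a synaptic vesicle priming protein, had -0.77 ± 0.07 and -0.37 ± 0.07, in the same order of fractions. The difference between fractions was called for all 3 and was positive for STMN2 and ELAVL3, as for INSR and CELF5, and negative for UNC13A (-0.40 ± 0.10, adjusted p = 0.0116), as for TRAPPC12. None of the 3 was called after HNRNPA1 knockdown in either fraction.

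Other lists were read beside the members. After TDP-43 knockdown 14.0% of all genes were called higher and 10.9% lower in neurites, and 9.41% higher and 9.53% lower in soma. Of 32 relatives and partners of the members, 12 were called higher and 2 lower in TDP-43 knockdown neurites, and 7 higher and 8 lower in soma. SYNE2, the nesprin related to SYNE1, rose in both fractions (0.66 ± 0.07 in neurites and 0.85 ± 0.07 in soma), and so did LSAMP, an IgLON relative of IGLON5 (0.81 ± 0.07 in neurites and 0.52 ± 0.08 in soma). OPCML, another IgLON, fell in soma (-0.94 ± 0.08, adjusted p = 5.19e-10), and so did CAMK2A, the alpha subunit beside CAMK2B (-0.65 ± 0.09). Named after their values were seen, CELF4, a relative of CELF5, was higher in both fractions (0.35 ± 0.05 in neurites and 0.28 ± 0.05 in soma), and the phosphofructokinases PFKL and PFKM were called in neither. Of 10 factors of nonsense-mediated decay, 4 were called higher and 1 lower in neurites, and 1 higher and none lower in soma. UPF2 was higher in both (0.47 ± 0.08 in neurites and 0.43 ± 0.08 in soma) and SMG9 was the lower one (-0.36 ± 0.07). Of 19 hnRNP and related splicing regulators, 1 was called higher and 2 lower in neurites and 2 higher and none lower in soma, and none of those called moved by more than 0.23 in size.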

How the data were processed

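Total RNA, 10 ng per library, was sequenced from neurite and soma fractions. The deposited table holds expected counts per gene (estimated counts that need not be whole), and 81.1% of the nonzero values were whole within 0.005. Per the submitters' processing notes the tools were STAR 2.7.11b and featureCounts of Subread 2.0.6, with build hg38. The sources used here do not give the annotation release, the strand option or how multimapped reads were treated. By GENCODE 29, 12 members overlap a gene on the same strand and 18 on the opposite strand, and 8 overlap none, so reads of such neighbours may not be told apart. Gene symbols come from a list of gene names, and from that release where the list had none. Coordinates and gene lengths come from that release, in which 58228 of the 63241 genes of the table were found.

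The expected counts were rounded. A library under 100000 counts (TDP-43 knockdown soma sample 5) was left out. Fits were made per experiment with edgeR 4.0.16 in R 4.3.3 (TMM, filterByExpr, quasi-likelihood F test, Benjamini-Hochberg over all genes tested), and both knockdown experiments together for differences between their effects. The SE is the log2 change divided by the root of F. Alternatives used DESeq2 1.42.0, limma 3.58.1, other scalings, no filter, 2 groups only, a replicate block and leaving out each library. The scripts were tested on simulated data with known changes, in a single draw per comparison. Far fewer genes were changed there than were called in the real data. The shares below are therefore not the error rates of the reported calls. At an adjusted p under 0.05, 11.9% of calls were in error for TDP-43 knockdown in soma. That share was 8.44% for the difference between fractions of the TDP-43 experiment, and 5.16 to 6.965% for the other comparisons simulated. Changes of 1.5 fold were found in 83.3% for TDP-43 knockdown in soma and in 42.4% for the difference.

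Members and lists were chosen with earlier results of these data known. Library values are given for members called after TDP-43 knockdown with a log2 change of at least 0.5 in size in a fraction, and for those whose change differed between fractions; values of GPSM2, MNAT1 and RSF1 are given besides. Outside the members, the targeted genes, the 3 targets kept out and at most 3 genes per list and TDP-43 comparison, those with the largest called change, were named, with exceptions marked. Library pairs of a group were compared for copies by a chi-square test over genes, and the 108 pairs differed by more than counting noise (1.91 to 161.3 per degree of freedom). Numbers were to be taken as pairs where the deviations of every same-numbered pair correlated above 0.1. This held for 0 of 13 pairs of groups (correlations of -0.233 to 0.429), so the main fits have no block. Neurite and soma libraries of each set carry the same sample numbers and may be fractions of one culture. The main tests between fractions treat them as independent, and further fits took the fractions of one number and guide as a block.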

Additional observations from a re-analysis of the deposited data

Results flagged for a closer look

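The change after TDP-43 knockdown differed between neurites and soma, by the interaction term in edgeR, for 7 members. The log2 difference, neurites minus soma, was 1.52 for PHF2, 0.99 for CBARP, 0.57 for CDK7, 0.54 for IGLON5, 0.41 for INSR, 0.35 for CELF5 and -0.41 for TRAPPC12.

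A library stood apart from the others of its group in 14 of 300 combinations of gene and group looked at, where chance flags about 1 in 20. In the TDP-43 experiment IGSF21 had 11.4 CPM in knockdown neurite sample 2 against 7.03 to 8.19 CPM in the rest, and 19.0 CPM in non-targeting neurite sample 6 against 13.3 to 14.8 CPM. ARHGAP32 had 153 CPM in knockdown neurite sample 2 against 131 to 138 CPM, and MNAT1 had 31.0 CPM in knockdown neurite sample 4 against 37.0 to 38.9 CPM. GPSM2 had 4.36 CPM in knockdown soma sample 1 against 3.97 to 3.98 CPM. SETD5 had 262 CPM in non-targeting neurite sample 4 against 311 to 328 CPM, and RSF1 had 205 CPM in non-targeting soma sample 1 against 172 to 181 CPM.

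In the hnRNPA1 experiment SYT7 had 211 CPM in knockdown neurite sample 6 against 185 to 191 CPM, and TRAPPC12 had 66.9 CPM in the same library against 71.2 to 73.8 CPM. RAP1GAP had 10.4 CPM in knockdown neurite sample 1 against 16.03 to 19.1 CPM, and IGSF21 had 17.4 CPM in knockdown neurite sample 4 against 11.6 to 13.3 CPM. INSR had 89.3 CPM in knockdown soma sample 6 against 73.5 to 78.9 CPM, and RSF1 had 243 CPM in non-targeting soma sample 3 against 198 to 214 CPM. In untreated neurons CDK7 had 13.7 CPM in soma sample 7 against 12.0 to 12.3 CPM.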

How the results depend on the processing

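Of 145 single-gene results, 1026 values under other settings kept direction and call, 61 lost the call and 15 reversed; leaving out a library lost the call in 70 values and kept it in 1835. With library sizes alone, members called higher numbered 3 after TDP-43 knockdown in neurites, 1 in soma and 2 (with 0 lower) for the difference between fractions; after HNRNPA1 knockdown they were 0 higher and 6 lower in neurites and 0 higher in soma; the TDP-43 effect exceeded or undercut the HNRNPA1 effect in soma for 1 and 8. Neurites against soma then gave 2 higher and 23 lower in the TDP-43 controls, 4 and 20 in the hnRNPA1 controls, and 5 and 23 in untreated neurons. Over all genes, library sizes alone gave 775 higher and 902 lower after TDP-43 knockdown in soma, against 2072 and 2098 with TMM. For the TDP-43 effect minus the HNRNPA1 effect in soma they gave 710 and 583, against 1508 and 1400. The same scaling reversed ratios of neurites over soma: in the TDP-43 controls RSF1 (-0.0515), EPB41L4A (-0.19), ARHGAP32 (-0.49) and IGLON5 (-0.17); in the hnRNPA1 controls KALRN (-0.0040), MYO18A (-0.0583), ARHGAP32 (-0.19), IGLON5 (-0.10) and SYNE1 (-0.10); in untreated neurons KALRN (-0.80), GPSM2 (-0.34), ARHGAP32 (-0.75), CDK7 (-0.60), SETD5 (-0.96) and SYNE1 (-0.45). That scaling leaves composition uncorrected; the cause of single reversals was not tested. Fitting 2 groups only gave 3 higher after TDP-43 knockdown in neurites and 0 after HNRNPA1 knockdown in soma. With no filter, 3 were higher after HNRNPA1 knockdown in neurites and 0 in soma. Over all genes the 2-group fits called 2107 of 17107 and 615 of 19660 higher, and the fits with no filter 1130 and 755 of 58187. The cause was not tested.

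Leaving out a library gave 1 to 2 lower for the difference between fractions (2 without knockdown neurite sample 5 or non-targeting neurite sample 4 or 6), 0 to 1 higher and 1 to 3 lower after HNRNPA1 knockdown in soma, 3 to 6 higher after it in neurites, and 3 to 8 lower in untreated neurites. Sample numbers did not meet the rule for pairs in any 2 groups, although every sample correlated best with its own number between knockdown neurites and soma (4 of 4, correlations of 0.0502 to 0.117) and between knockdown and non-targeting soma (3 of 3, 0.0969 to 0.128) of the TDP-43 experiment, a hint from the data. With the replicate block the calls after TDP-43 knockdown were 4 higher and 12 lower in neurites, 4 and 14 in soma, and 6 and 1 for the difference. After HNRNPA1 knockdown they were 5 and 3 in neurites and 1 and 3 in soma, and in untreated neurons 11 and 8. Over all genes the block gave 2750 higher and 1976 lower in TDP-43 knockdown neurites, 1548 and 1602 in soma, and 1137 and 809 for the difference. After HNRNPA1 knockdown it gave 1998 and 1561 in neurites and 876 and 732 in soma, and in untreated neurons 5404 and 5438. A block of the fractions of one number and guide gave 6 higher and 1 lower for the TDP-43 difference, with 1377 and 835 over all genes. For neurites against soma it gave 7 and 13 in the TDP-43 controls, with 5251 and 4826 over all genes. In the hnRNPA1 controls it gave 10 and 12, with 4772 and 5095 over all genes. Depth limits GPSM2, at 2.57 to 4.36 CPM in soma of the TDP-43 experiment.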
